A study of Mus musculus with 6 samples.

Results

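The nucleolar factors of ribosome biogenesis were followed in vastus lateralis muscle, a head of the quadriceps, of mice that carry an excess of FRG1 (FSHD region gene 1). They comprised 52 genes, listed by name for their part in making ribosomes. The rule uses no measured value, but the genes were named with earlier results of these data known. Every Illumina probe annotated to one of them was used. Of the 52 genes, 49 had a named probe and 42 had at least 1 probe detected above background (detection p under 0.05) on at least 3 of the 6 arrays. These 42 stood among 10287 genes measured in the same way. The comparison set 3 samples labelled as over-expressing FRG1 (Sample873, Sample874 and Sample871, called transgenic here) against 3 wild type samples (Sample906, Sample872 and Sample923). All 6 came from C57Bl/6J females at 4 weeks of age. The labels used here give neither the promoter of the transgene nor the species of its sequence. They do not say how the animals were related, so the p-values measure the spread between these samples only.

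Ribosomes are assembled in the nucleolus. RNA polymerase I transcribes ribosomal RNA as a long precursor, small nucleolar ribonucleoproteins (snoRNPs) guide its chemical modification, and separate sets of processing factors, helicases and GTPases shape the small and the large subunit before export to the cytoplasm. In skeletal muscle the output of this pathway is one of the determinants of protein synthesis capacity and of fibre growth, and in many cell types the Myc and mTOR pathways control it. FRG1 protein has itself been located in nucleoli, among other nuclear bodies.

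Between 17957 and 20000 probes per array were detected, and the summed signal lay between 10537335 and 13062182 intensity units. Wild type Sample923 stood apart from the other wild type samples on the second principal component, which held 19.2% of the variance, so values without it are given where it decides a result. Transgenic Sample871 stood apart on the 3 measured neutrophil markers, with a summed intensity of 2010 beside 128 in Sample873, 126 in Sample874 and 85 to 109 in wild type. Each call of a member, further biogenesis gene or regulator that was lost without it is named as such. The calls of cell type markers are given from all 6 samples only, and whether they hold without Sample871 is not reported. The 1 Frg1 probe was detected on 0 of the 6 arrays, with signals of 38.0 to 46.5 intensity units in wild type and 40.0 to 46.1 in transgenic muscle, and it therefore checks neither the transgene nor the labels. Of 12 listed markers of muscle fibres, 11 were measured, and their summed intensity ranged from 228270 to 243395 in wild type and from 224361 to 239823 in transgenic samples. In this list 1 gene, the fast myosin Myh4, was lower (log2 fold change -0.45, limma adjusted p = 0.0446). Of 11 measured macrophage markers 9 were higher in transgenic muscle and 0 lower, with summed intensities of 2307 to 2595 in wild type and 4736 to 6094 in transgenic samples, and Cd163 was not above background. Lgals3 weighs heavily in the transgenic sums, with a log2 fold change of 2.59 beside a median of 0.65 over the measured macrophage markers. Of 12 endothelial markers 3 were lower and 0 higher, with sums of 9988 to 10753 against 6996 to 8818. Of 10 measured smooth muscle and pericyte markers 3 were lower and 0 higher, and 8 log2 fold changes lay below 0 and 2 above. Their sums overlapped, at 10906 to 11726 in wild type and 10240 to 11142 in transgenic samples. These sums include the bright gene Des, also listed for myoblasts, which stood at 0.31 (limma adjusted p = 0.174), so they are a weak guide to the other markers. Of 11 measured genes of dividing cells 3 were higher and 0 lower, with sums of 1015 to 1078 against 1159 to 1187, but 1 of the 3, Top2a, was detected in 0 wild type and 3 transgenic samples and so was retained through the group in which it was higher. Of 5 measured satellite cell and myoblast markers 1 was higher and 0 lower, with overlapping sums of 3741 to 4960 in wild type and 4936 to 5285 in transgenic samples. That 1, Myog, was detected in 0 wild type and 3 transgenic samples, and so was likewise retained through the higher group. The satellite cell and myoblast sums consist mostly of Des, so they too are a weak guide to the other markers. Pax7, Myf5, Myod1 and Chrna1 were not above background. Of 9 measured fibroblast markers 1 was higher and 1 lower, of 2 lymphocyte markers 1 was higher and 0 lower, and of 3 erythroid markers 0 passed. The lymphocyte marker, Cd79b, was detected in 1 wild type and 3 transgenic samples, and so was also retained through the higher group. It read 6.09 in Sample871, beside 5.19 in Sample873 and 5.25 in Sample874. Cd3e, Cd3d, Cd3g, Cd79a, Ptprc and Nkg7 were not above background. Over all measured genes 7.53% were higher and 7.23% lower. The part of these differences in the values below was not tested. In whole muscle, more RNA per cell and more cells of a type cannot be told apart.

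Most nucleolar factors could not be separated between the genotypes. In limma, 1 of the 42 measured members was higher in transgenic muscle after Benjamini-Hochberg adjustment, Rrp1b, and 0 were lower, although 4 had an unadjusted p under 0.05 in each direction. That is 2.38% of the measured members, beside 14.8% of all measured genes in either direction. An unadjusted p under 0.05 was found for 19.0% of the members and for 30.5% of all genes. The 3 transgenic values lay wholly above or wholly below the 3 wild type values in 13 members (31.0%), 6 of them higher and 7 lower, beside 36.6% of all genes. The count of members past the threshold moved between 0 and 3 with the processing, and the members concerned are named below.

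Log2 fold changes of the members, transgenic minus wild type, ran from -0.43 to 0.80 with a median of 0.07, beside a median of -0.03 and a range of -2.59 to 4.21 over all genes. Positive values were found for 28 members and negative ones for 14, and the counts were 34 and 8 when arrays were scaled to a common median, a setting that moved the median of all genes to 0.10. Only 3 members (7.14%) differed by more than 0.5 on the log2 scale, against 14.3% of all genes. The 95% interval of the log2 fold change lay within a 1.5-fold difference in either direction for 34 members (81.0%) and within a 2-fold difference for 41. Among all genes the share within 1.5-fold was 60%, at the same median half-width of the interval, 0.31. On the brightest probe of each gene, the data therefore bound most of these differences to a small size, and do not show that the values were equal. Other probes of the same genes are not covered by this bound. Ubtf is counted within 1.5-fold, yet its dimmer probe stood at -0.74 (95% interval -1.03 to -0.44). The offset of 16 added before log2 also understates fold changes of dim probes, among them those of Nol10 and Utp15, so the bound is weaker there. The bound holds for the main processing only. It was not computed with median scaling, which moved the members' median to 0.24.

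**Figure D1:**
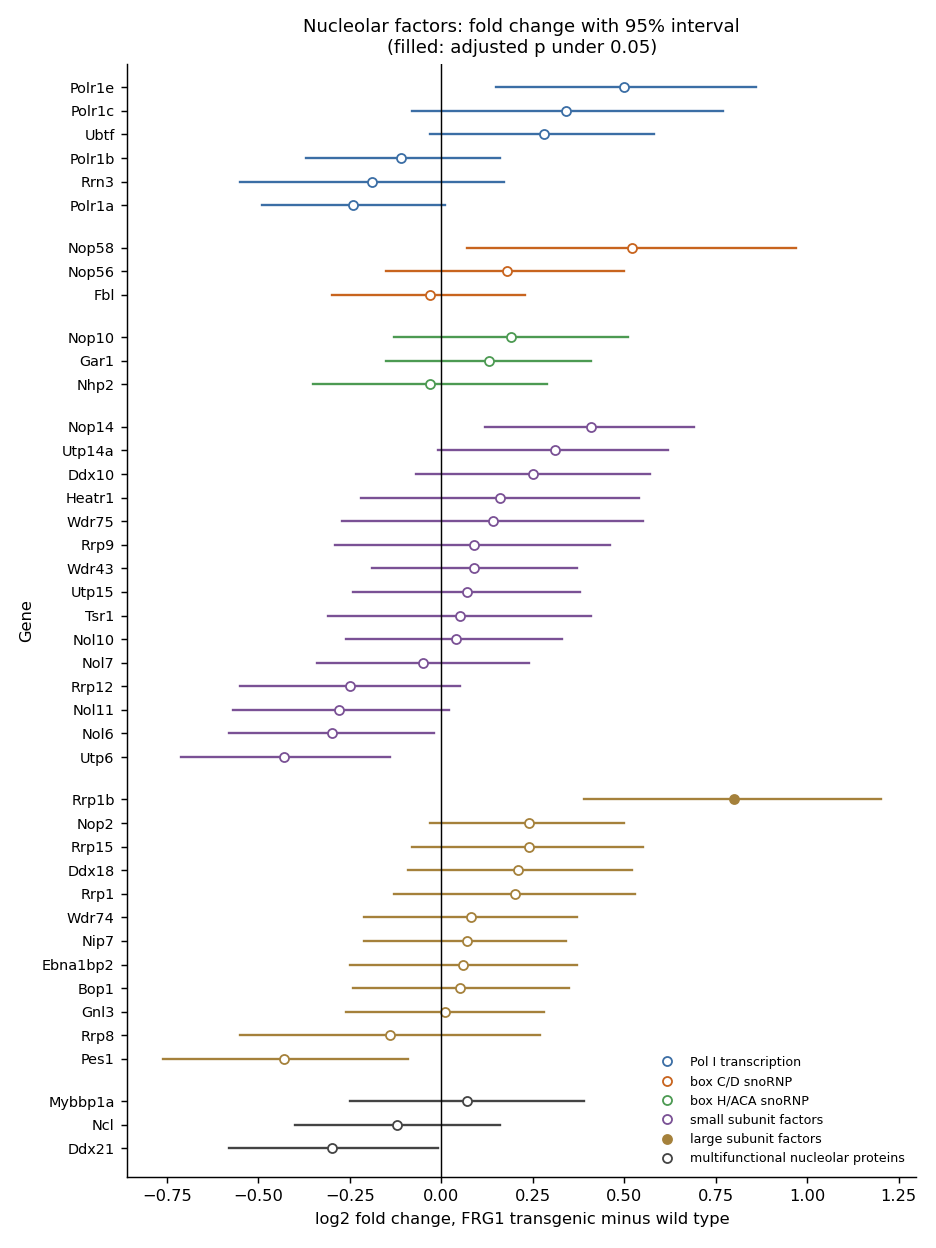
Log2 fold change (x axis, transgenic minus wild type) with its 95% interval for each of the 42 measured nucleolar factors, grouped by role; a filled point passed the limma threshold of 0.05. Rrp1b at 0.80 is the 1 filled point, and the other 41 lie between -0.43 and 0.52.

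The deviation of each sample from the mean of all 6, taken as the median over the 42 members, was -0.11 in wild type Sample906, -0.07 in wild type Sample872 and 0.10 in wild type Sample923 (log2 scale). In transgenic muscle it was 0.07 in Sample873, 0.04 in Sample874 and 0.00 in Sample871. Wild type Sample923 thus lay above every transgenic sample and the groups overlapped. Over all genes the same medians ran from -0.03 to 0.06, with Sample923 again the highest. Sample923 held the highest or the lowest of the 3 wild type values in 34 of the 42 members (81.0%) and in 72.3% of all genes. Without it the members' median log2 fold change was 0.15 and that of all genes -0.01.

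**Figure D2:**
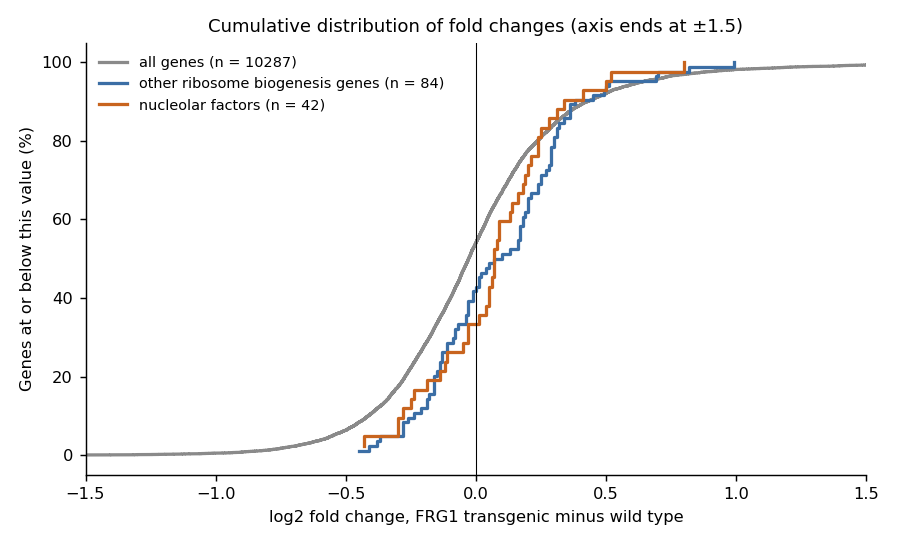
Cumulative percentage of genes (y axis) at or below each log2 fold change (x axis, transgenic minus wild type) for the 42 nucleolar factors, 84 other ribosome biogenesis genes and all 10287 measured genes. The medians are 0.07, 0.09 and -0.03, and both biogenesis curves have shorter tails than the curve of all genes.

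The RNA polymerase I group holds the polymerase subunits and the factors that bring the enzyme to the ribosomal RNA genes, and 0 of its 6 measured members passed the threshold. Polr1e, a subunit that aids initiation and elongation, had log2 values of 6.04, 5.99 and 6.52 in wild type Sample906, Sample872 and Sample923 and of 6.65, 6.62 and 6.80 in transgenic Sample873, Sample874 and Sample871. The groups did not overlap, with wild type Sample923 close to the transgenic samples, and the log2 fold change was 0.50 ± 0.16 (SE; limma adjusted p = 0.0622). Without wild type Sample923 it was 0.67 and passed (adjusted p = 0.0065), and it also passed with median scaling (0.69, adjusted p = 0.00976) and with cyclic loess (0.56, adjusted p = 0.0356). Polr1a, the largest catalytic subunit, had -0.24 ± 0.11 on its brightest probe, with non-overlapping groups (9.41, 9.38 and 9.46 in wild type; 9.15, 9.14 and 9.25 in transgenic muscle; adjusted p = 0.199). Polr1b, the other large catalytic subunit, stood at -0.11 ± 0.12, and Polr1c, shared with RNA polymerase III, at 0.34 ± 0.19. Rrn3, which links the polymerase to its promoter factors and responds to growth signals, stood at -0.19 ± 0.16 (95% interval -0.55 to 0.17).

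Ubtf, the DNA-binding factor that keeps ribosomal genes open for transcription, gave opposite answers on its 2 retained probes. The brighter probe (ILMN_1255927) read 7.74, 7.74 and 8.11 in wild type and 8.20, 8.16 and 8.07 in transgenic samples on the log2 scale, with overlapping groups and a log2 fold change of 0.28 ± 0.14 (adjusted p = 0.217). The dimmer probe (ILMN_2506061) read 6.50, 6.28 and 6.28 in wild type and 5.69, 5.44 and 5.72 in transgenic samples. On that probe the groups were well apart and the value was 1.67-fold higher in wild type (log2 fold change -0.74 ± 0.13, limma adjusted p = 0.00581), a call kept under all 14 alternatives that could be applied to it. The gene cannot be given a direction from these arrays. Which transcripts each probe reads was not tested.

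Box C/D snoRNPs carry out 2'-O-methylation of ribosomal RNA, and 0 of the 3 core proteins among the members passed. Nop58 had log2 values of 8.96, 8.68 and 8.16 in wild type and 9.37, 8.94 and 9.06 in transgenic samples. Wild type Sample906 lay inside the transgenic range, Sample923 was the lowest, and the log2 fold change was 0.52 ± 0.20 (adjusted p = 0.124). Its partner Nop56 stood at 0.18 ± 0.15, and fibrillarin, Fbl, the methyltransferase itself, at -0.03 ± 0.12 with an interval of -0.30 to 0.23. Box H/ACA snoRNPs convert uridine to pseudouridine. Their proteins Nop10, Gar1 and Nhp2 stood at 0.19 ± 0.14, 0.13 ± 0.12 and -0.03 ± 0.14, all with overlapping groups, and Dkc1, the pseudouridine synthase of the complex, had no named probe. The 2 Gar1 probes gave 0.13 and 0.14.

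Of the 19 small subunit factors 15 were measured and 0 passed, with a median log2 fold change of 0.07 and a range of -0.43 to 0.41. The 2 with the smallest p pointed in opposite directions. Utp6, of the small subunit processome, read 8.30, 8.34 and 8.46 in wild type and 7.77, 8.0 and 8.06 in transgenic samples. All 3 transgenic values were below the wild type ones, and the log2 fold change was -0.43 ± 0.13 (limma adjusted p = 0.0532). Nop14, which acts in the same particle, read 7.97, 8.04 and 7.73 in wild type and 8.37, 8.24 and 8.34 in transgenic samples. All 3 transgenic values were above, with a log2 fold change of 0.41 ± 0.13 (limma adjusted p = 0.0612). Utp6 passed downward under 5 and Nop14 upward under 4 of the 15 alternatives to the processing, with lowest adjusted p-values of 0.0289 and 0.0335.

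Nol6, another processome protein, had lower transgenic values on its brightest probe without overlap (9.15, 8.92 and 9.19 in wild type; 8.90, 8.73 and 8.74 in transgenic muscle). Its log2 fold change was -0.30 ± 0.13 (adjusted p = 0.152), and its other 2 retained probes gave -0.24 and -0.13. The factors that bind the nascent transcript earliest, which in human cells also support polymerase I transcription, were spread around 0. Heatr1 stood at 0.16 ± 0.17, Wdr75 at 0.14 ± 0.18, Wdr43 at 0.09 ± 0.12, Utp15 at 0.07 ± 0.14 and Nol11 at -0.28 ± 0.13. Rrp9, which binds the U3 snoRNA that guides early cleavage, stood at 0.09 ± 0.17. Rrp12, known from yeast as an export factor of pre-ribosomes, stood at -0.25 ± 0.13, and Tsr1, a late factor of the small subunit precursor, at 0.05 ± 0.16. The remaining measured members were Utp14a at 0.31 ± 0.14, the helicase Ddx10 at 0.25 ± 0.14, Nol10 at 0.04 ± 0.13 (above background on 3 of the 6 arrays) and Nol7 at -0.05 ± 0.13.

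**Figure D3:**
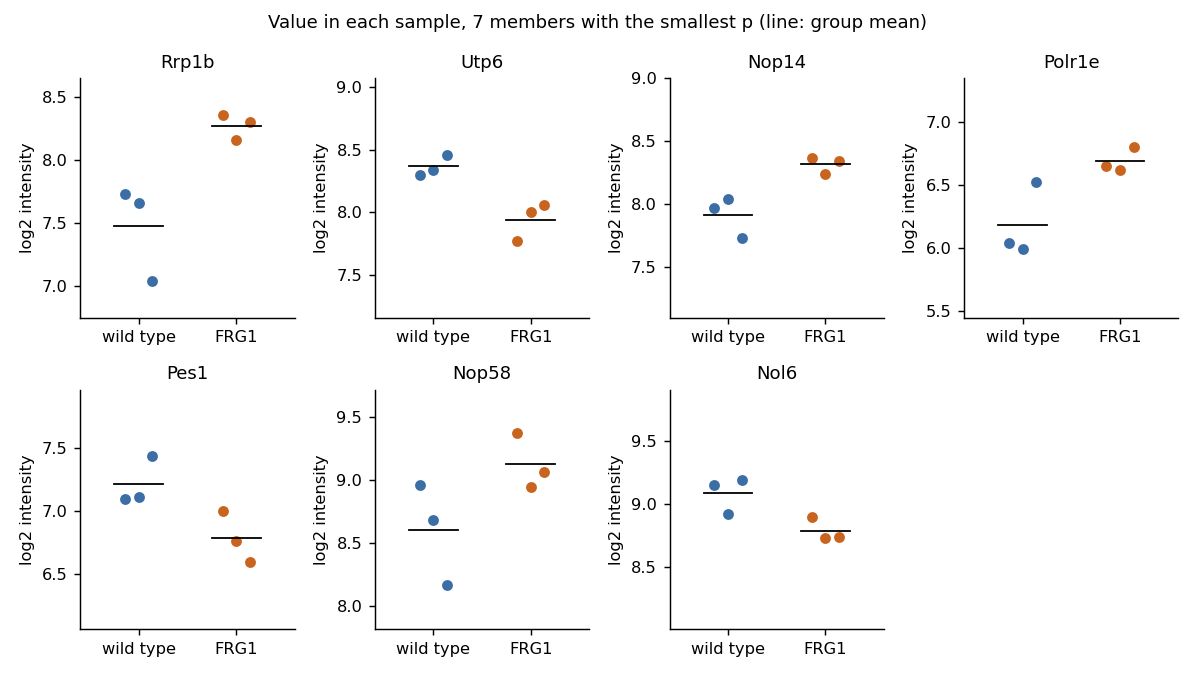
Log2 intensity (y axis, every panel drawn over the same span) in each of the 3 wild type and 3 transgenic samples for the 7 members with the smallest p; the line is the group mean. Nop58 is the 1 panel in which the groups overlap, and 1 wild type sample, Sample923, lies well below the others for Rrp1b and Nop58 and above them for Polr1e.

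The large subunit group held the 1 member that passed. Rrp1b, a nucleolar protein that in human cells targets protein phosphatase 1 to the nucleolus, read 7.73, 7.66 and 7.04 in wild type and 8.36, 8.16 and 8.30 in transgenic samples on its brighter probe (ILMN_2595283). All transgenic values lay above the wild type ones, and wild type Sample923 was the lowest. Rrp1b rose 1.74-fold, from 7.47 ± 0.38 to 8.27 ± 0.11 (SD, n = 3 each; log2 fold change 0.80 ± 0.18, SE, 95% interval 0.39 to 1.2, limma adjusted p = 0.0178). Without wild type Sample923 the log2 fold change was 0.58 and still passed (adjusted p = 0.0146). The call was lost without transgenic Sample873 (0.75, adjusted p = 0.0782) and without transgenic Sample871 (0.78, adjusted p = 0.067), with no detection filter, in the authors' processed table and with the gene's probes averaged (0.49, adjusted p = 0.0797). The dimmer Rrp1b probe (ILMN_1222251) gave 0.19 ± 0.17, with overlapping groups. Its paralogue Rrp1 stood at 0.20 ± 0.15.

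The other measured large subunit factors, 11 in number, did not pass. Pes1, which with Bop1 and Wdr12 forms the complex needed to mature the 28S ribosomal RNA, read 7.09, 7.11 and 7.43 in wild type and 7.0, 6.76 and 6.59 in transgenic samples. The groups did not overlap, although transgenic Sample873 came close to the lowest wild type value, and the log2 fold change was -0.43 ± 0.15 (limma adjusted p = 0.0922). Bop1 itself stood at 0.05 ± 0.13 (95% interval -0.24 to 0.35), and Wdr12 was not above background. Nop2, a methyltransferase of 28S ribosomal RNA, stood at 0.24 ± 0.12 with non-overlapping groups, and its dimmer probe gave 0.11. Rrp8, a methyltransferase that modifies an adenine of the same RNA, stood at -0.14 ± 0.18. Gnl3, the GTPase nucleostemin that is abundant in stem cells, stood at 0.01 ± 0.12 with an interval of -0.26 to 0.28. The dimmer Gnl3 probe gave 0.24 ± 0.12 with non-overlapping groups. The helicase Ddx18 stood at 0.21 ± 0.14, Rrp15 at 0.24 ± 0.14, Wdr74 at 0.08 ± 0.13 and Nip7 at 0.07 ± 0.12.

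Among the abundant nucleolar proteins with several tasks, nucleolin, Ncl, which binds ribosomal RNA and chromatin, read 8.11, 8.38 and 8.20 in wild type and 8.17, 8.02 and 8.15 in transgenic samples. The groups overlapped, the log2 fold change was -0.12 ± 0.12 with an interval of -0.40 to 0.16, and the other Ncl probe gave -0.09. Ddx21, a helicase that senses the activity of RNA polymerase I, stood at -0.30 ± 0.13 without overlap on its brighter probe and at 0.35 ± 0.33 on its dimmer one. Mybbp1a, a nucleolar protein linked to p53 activation, stood at 0.07 ± 0.14. Npm1, nucleophosmin, the shell protein of the nucleolus, had 1 probe, which was detected on 0 of the 6 arrays with signals of 35.0 to 39.8 intensity units, so that these arrays hold no measure of it.

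Besides Npm1 and Wdr12, the members with a named probe but none detected on 3 arrays were Utp3, Utp18 and Bysl of the small subunit group and Nop16 and Ddx56 of the large subunit group. These 7 genes had 8 probes with signals between 29.1 and 61.7 intensity units, and 7 of the 8 were detected on 0 arrays. The exception was a probe of Ddx56, detected on 2 transgenic arrays and 0 wild type ones. Dkc1, Utp20 and Nol8 had no named probe. Neither set is counted among the members that did not differ.

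Of the 60 retained member probes 2 passed the threshold, 1 of Rrp1b and 1 of Ubtf, beside 13.8% of all retained probes. Among the 14 members with at least 2 retained probes, 6 had probes of both signs. These were Polr1a, Ubtf, Heatr1, Ebna1bp2, Ddx21 and Mybbp1a. Polr1a had 0.53 ± 0.28 and 0.23 ± 0.13 on its other probes, against -0.24 on the brightest. Ebna1bp2, an assembly factor of the large subunit, had 0.06 ± 0.14 on its brightest probe and -0.39 ± 0.14 and -0.48 ± 0.19 on the dimmer ones. Heatr1 had 0.16 and -0.04, and Mybbp1a had 0.07, 0.16 and -0.07. A single probe is thus a weak guide to the direction of such small differences.

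**Figure D4:**
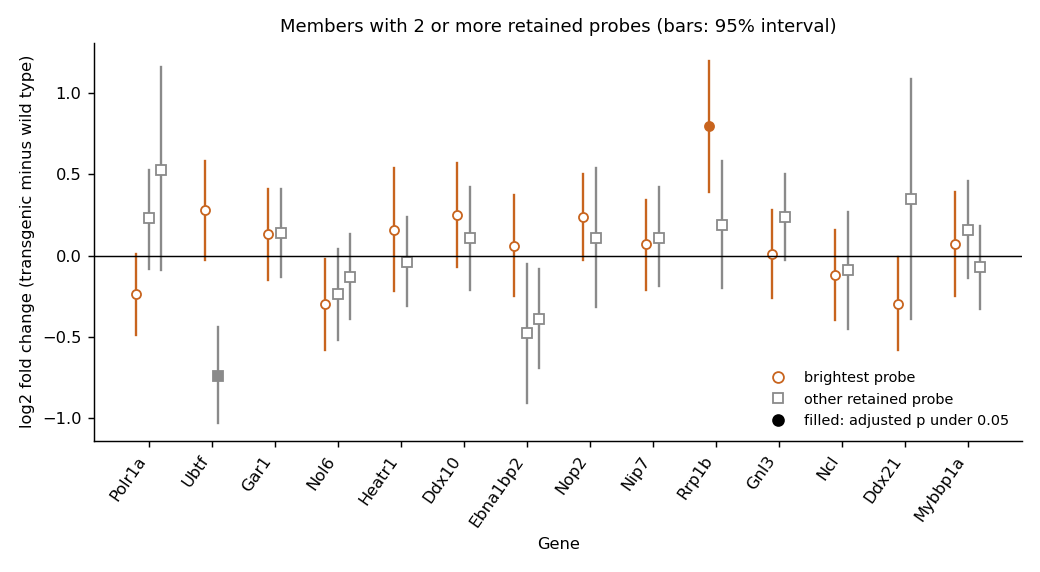
Log2 fold change (y axis, transgenic minus wild type) with its 95% interval for every retained probe of the 14 members with at least 2; circles are the brightest probe of a gene, squares the others, and filled marks passed the limma threshold. Ubtf shows the widest disagreement between called and uncalled probes, with 0.28 on the brightest and -0.74 on the other.

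The rest of the pathway was represented by 99 further ribosome biogenesis genes, of which 84 were measured. In limma 6 of them (7.14%) were higher in transgenic muscle and 0 lower, beside 7.53% and 7.23% of all genes, so the share of higher calls was near the background. At an unadjusted p under 0.05 there were 19 higher and 6 lower, together 29.8% of them beside 30.5% of all genes (14.2% higher and 16.3% lower). Their median log2 fold change was 0.09. Noc3l, which in yeast acts in large subunit assembly and in DNA replication, read 5.55, 5.59 and 5.67 in wild type and 6.39, 6.49 and 6.4 in transgenic samples. These groups were far apart for their spread, and Noc3l rose 1.77-fold (log2 fold change 0.82 ± 0.11, limma adjusted p = 0.00152). Utp11, of the small subunit processome, rose 1.63-fold (10.07, 10.39 and 10.34 against 10.97, 10.93 and 11.00; log2 fold change 0.70 ± 0.13, adjusted p = 0.00603). Noc3l and Utp11 kept their calls under all 15 alternatives.

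Riok1, a kinase of late small subunit maturation, rose 1.61-fold (log2 fold change 0.69 ± 0.14, adjusted p = 0.012), a call lost without transgenic Sample873 or without transgenic Sample871. Imp4, which binds the U3 snoRNP, rose 1.43-fold (0.51 ± 0.12, adjusted p = 0.0184), lost without transgenic Sample871, and its second probe gave 0.45 ± 0.15 (adjusted p = 0.0772). Nol12 rose 1.41-fold (0.49 ± 0.13, adjusted p = 0.0281) and kept its call under 10 of 15 alternatives, all 5 losses being with 1 sample left out (wild type Sample872 or Sample923, or any transgenic sample). Baz2a, the TIP5 subunit of the complex that silences ribosomal genes, read 6.25, 6.01 and 5.01 in wild type and 6.56, 6.63 and 7.04 in transgenic samples. Its log2 fold change was 0.99 ± 0.28 (adjusted p = 0.0453), and 0.61 without wild type Sample923, its lowest value (adjusted p = 0.0332). Its call was lost without wild type Sample872 (1.11, adjusted p = 0.0607), without any 1 of the transgenic samples, with no detection filter, in the authors' processed table and with trend and robust eBayes.

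Regulators of the pathway were read from a list of 20 genes, of which 15 had a named probe and 12 were measured. In limma 0 of these were higher and 2 were lower, and 9 of the 12 log2 fold changes lay below 0, with a median of -0.28 beside -0.03 for all genes. The 2 calls are 16.7% of the list, near the 14.8% of all genes called in either direction, and 54.1% of all genes also lay below 0. At an unadjusted p under 0.05 in limma, 5 were lower (41.7%, beside 16.3% of all genes) and 0 higher (beside 14.2%). The groups did not overlap in 8 (66.7%, beside 36.6% of all genes). With 12 genes measured, these shares are descriptions. With median scaling 9 were again below 0, 0 were lower past the threshold, and the median was -0.14 beside 0.10. Mxd1, which competes with Myc for its partner and represses the same targets, read 6.87, 6.84 and 7.03 in wild type and 6.35, 6.29 and 6.49 in transgenic samples. It fell without overlap and was 1.45-fold higher in wild type (log2 fold change -0.54 ± 0.12, limma adjusted p = 0.0175). The call was lost with median scaling (-0.35, adjusted p = 0.117), without transgenic Sample873 (adjusted p = 0.0754) and without transgenic Sample874 (adjusted p = 0.0573). Its relative Mxi1 stood at -0.50 ± 0.15 (adjusted p = 0.0557). Myc and Mycn were not above background on enough arrays to be measured.

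Tsc1, which with Tsc2 restrains mTOR complex 1, read 7.49, 7.53 and 7.47 in wild type and 6.89, 6.97 and 6.89 in transgenic samples on its brightest probe. That probe fell, the wild type level being 1.49-fold that of transgenic muscle (log2 fold change -0.58 ± 0.11, limma adjusted p = 0.00804). The other 2 Tsc1 probes gave 0.41 ± 0.12 (on a probe detected in 0 wild type samples) and 0.02 ± 0.16, the 3 probes averaged gave -0.05 (adjusted p = 0.812), and with median scaling the brightest gave -0.39 (adjusted p = 0.0972). Tsc2 stood at -0.24 ± 0.11, Mtor, the kinase, at -0.34 ± 0.15 and Rptor, a defining subunit of complex 1, at 0.06 ± 0.15. The mTOR substrate Eif4ebp1, a repressor of translation, stood at -0.32 ± 0.15, Akt1s1, an inhibitor of the complex, at -0.15 ± 0.12, and Larp1, which represses messenger RNAs of the translation machinery, at -0.43 ± 0.14 (adjusted p = 0.0662). Larp1 values were lower on all 3 of its retained probes (-0.43, -0.48 and -0.28). Maf1, a repressor of RNA polymerase III, stood at -0.17 ± 0.12, Foxo1 at 0.02 ± 0.16 and the retinoblastoma gene Rb1 at 0.06 ± 0.12.

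**Figure D5:**
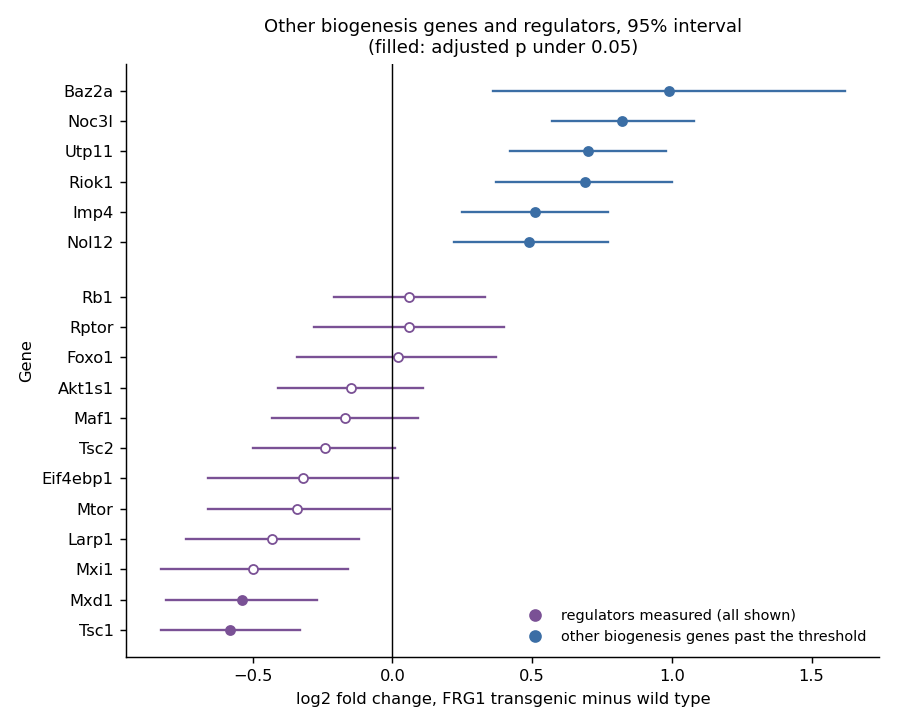
Log2 fold change (x axis, transgenic minus wild type) with its 95% interval for the 6 other biogenesis genes past the limma threshold (blue) and for the 12 measured regulators (purple); filled points passed. The 6 biogenesis genes lie between 0.49 and 0.99, and Mxd1 and Tsc1 are the 2 filled regulators, at -0.54 and -0.58.

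Promoter sequence, from 250 bases before to 50 after the annotated start (RefSeq, GRCm38.p6), was available for 46 of the 52 members, with 55 starts. The motif CACGTG, the palindromic E-box that Myc and Mxd proteins bind, was present in 9 of these 55 promoters (16.4%), in 9.67% of the promoters of genes measured here and in 7.15% of all 32851 promoters. It was found for Nop2, Pes1, Mybbp1a, Tsr1, Nol11, Rrn3, Wdr43, Utp18 and Utp20. Of these, 7 were measured and 0 passed in limma, with 1 unadjusted p under 0.05 (Pes1), beside 14.8% and 30.5% of all genes, too few genes to read anything from the count. The GC box GGGCGG, read on either strand, was present in 41 of the 55 (74.5%), in 60.1% of the promoters of measured genes and in 35.7% of all promoters. A match describes the letters of the window and shows no binding.

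The promoters below belong to the member that passed and to the 2 other biogenesis genes with the smallest p that the promoter table lists, and are shown so that a reader can set the sequences of genes that rose side by side. Capitals mark GGGCGG or its reverse complement, CACGTG is in none of them, and each reads 5′ to 3′ along the gene. They lie at chr17:32035912-32036211 on the plus strand for Rrp1b (the first of its 2 listed starts, the other holding neither motif), at chr19:38819188-38819487 on the minus strand for Noc3l, and at chr13:38036739-38037038 on the plus strand for Riok1, all in GRCm38.p6.
Rrp1b: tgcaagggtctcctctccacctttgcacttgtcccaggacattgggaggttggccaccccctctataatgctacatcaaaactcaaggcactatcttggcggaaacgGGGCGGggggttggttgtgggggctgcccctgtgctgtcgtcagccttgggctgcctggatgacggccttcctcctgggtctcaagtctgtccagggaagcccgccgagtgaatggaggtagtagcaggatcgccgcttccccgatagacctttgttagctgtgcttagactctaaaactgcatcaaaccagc
Noc3l: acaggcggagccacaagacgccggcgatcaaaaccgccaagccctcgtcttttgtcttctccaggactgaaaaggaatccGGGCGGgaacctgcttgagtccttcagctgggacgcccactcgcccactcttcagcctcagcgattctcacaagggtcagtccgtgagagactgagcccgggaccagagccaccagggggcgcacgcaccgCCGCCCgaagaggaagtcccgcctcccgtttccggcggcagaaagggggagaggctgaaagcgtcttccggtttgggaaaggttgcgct
Riok1: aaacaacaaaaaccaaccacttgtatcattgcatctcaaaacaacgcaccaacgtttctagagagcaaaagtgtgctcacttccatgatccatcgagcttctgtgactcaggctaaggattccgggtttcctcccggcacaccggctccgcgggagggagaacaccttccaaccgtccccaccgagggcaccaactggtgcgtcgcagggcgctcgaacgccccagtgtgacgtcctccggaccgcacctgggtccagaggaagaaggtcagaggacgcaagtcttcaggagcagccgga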

How the data were processed

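RNA of 6 vastus lateralis samples was measured on Illumina mouse bead arrays, 1 array per sample. The authors deposited, for each of 46632 probes, a signal intensity, labelled by them as not normalized, and a detection p-value. The authors also deposited a processed intensity, for which the submitters' processing notes name lumi, with its version and settings not given in the sources used here. Its columns share their minimum and maximum and hold values below 0. It served as an alternative only, with values under 16 set to 16 before log2.

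The function neqc (limma 3.58.1, R 4.3.3) corrected the background from the detection p-values, added an offset of 16, applied quantile normalization and took log2. Probes detected (p under 0.05) on at least 3 arrays were retained, 19563 in all. Each was fitted with lmFit and eBayes on genotype, p-values were adjusted by Benjamini-Hochberg over all retained probes at a threshold of 0.05, and the probe with the highest mean represented a gene. The offset understates fold changes of dim probes, and the number of arrays limits the precision. Symbols came from the platform annotation, updated through Entrez genes to RefSeq (29921 probes matched). Of all probes 29976 had 1 symbol, 10 several and 16646 none there.

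All members are accounted for. Values per sample were given by rule for members past the threshold and the next 6 by p. Those of Polr1a, Ubtf and Ncl were given outside this rule. Up to 5 called genes per further list and all measured regulators are named. The members and lists were named for their function, but with earlier results of these data known, so that their counts are descriptions. The fit was tested on simulated data. Protein comparisons planned for the members were not made.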

Additional observations from a re-analysis of the deposited data

How the results depend on the processing

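The alternatives changed which 0 to 3 members passed, and the cause of these changes was not tested. Members higher numbered 1 as reported, 2 with quantile normalization of the uncorrected signal, with median scaling, with cyclic loess, with an offset of 50 or with trend and robust eBayes, 0 with no detection filter and 0 in the authors' processed table, and 0 to 2 with 1 sample left out. Members lower numbered 0 as reported and 1, Utp6, with the uncorrected signal, the offset of 50, detection on all 6 arrays, averaged probes or trend and robust eBayes. Rrp1b kept its direction under all 15 alternatives (0.49 to 0.96) and its call under 10. Its limma adjusted p was 0.0855 with no detection filter and 0.0808 in the authors' table. Of the 41 other measured members, 3 (Polr1e, Utp6 and Nop14) passed under at least 1 alternative, and 19 changed sign under at least 1 without passing. The members' median moved from 0.07 to 0.24 with median scaling, which also moved that of all genes from -0.03 to 0.10 and the share of called genes that were higher from 51% to 78.9%. Other biogenesis genes higher numbered 6, 11 with median scaling and 2 to 7 with 1 sample left out, the 2 without transgenic Sample871 and 3 without transgenic Sample873. Other biogenesis genes lower numbered 0, or 0 to 1 with 1 sample left out. Over all features 2702 probes and 1519 genes passed, and 1330 to 2696 probes and 733 to 1473 genes with 1 sample left out, fewest without transgenic Sample873. No paired analysis was possible because the groups share no sample numbers. Signal over background limits what can be said of the 7 members without a retained probe.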
